A study of Bos taurus with 4 samples.

Results

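Genes that make, desaturate, lengthen, carry or store fatty acids were followed in day 7 bovine embryos from cows with high or low beta-hydroxybutyrate (BHB), the main ketone body of cow blood, which builds up when fat reserves are used for energy. The 10 genes, of 15216 genes named on the array, were selected from earlier results of the same comparison of high with low BHB. They are the desaturases FADS1, FADS2 and SCD, the acetyl-CoA supplier ACLY, the synthesis enzymes ACACA and FASN, the elongases ELOVL5 and ELOVL6, the fatty acid carrier FABP3 and the droplet coat protein PLIN2. Their ratios of high over low BHB are therefore given as a description, without a test. They carry 15 probes, of which 12 probes, from 8 genes, passed the filter on dim spots. The 2 members with no probe past the filter were ACACA and FASN.

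The embryos were morulas and blastocysts of Holstein cows (Bos taurus), recovered 7 days after oestrus. Donors in the low group had a systemic BHB concentration under 0.9 mmol/l and donors in the high group over 0.9 mmol/l, per the labels' protocols. Cows of both groups were superovulated with FSH, given cloprostenol and inseminated with sexed semen, and the RNA of both was amplified before labelling. Each of the 4 two-colour Agilent arrays held 1 RNA of each group, with the high group in Cy5 on arrays 1 and 2 and in Cy3 on arrays 3 and 4. Sample descriptions count 4 biological replicates, while the titles of arrays 3 and 4 repeat the numbers of arrays 1 and 2 with the word dyeswap, so that shared RNA was not settled from the labels. They do not say whether an RNA came from 1 cow or a pool, and the spread given here, with n = 4, is that between these arrays. Morulas and blastocysts were mixed in each RNA, and in such bulk RNA fewer cells of a type and less RNA per cell cannot be told apart.

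Fatty acid synthesis starts from citrate, which ATP citrate lyase (ACLY) splits to give cytosolic acetyl-CoA. Acetyl-CoA carboxylase (ACACA) turns acetyl-CoA into malonyl-CoA, and fatty acid synthase (FASN) builds palmitate from it. Elongases lengthen the chain, with ELOVL6 acting on palmitate and ELOVL5 mainly on polyunsaturated chains, and desaturases place double bonds: SCD makes oleate from stearate, while FADS2 and FADS1 carry out the successive desaturations of the path to arachidonic acid. FABP3 binds fatty acids in the cytosol, and PLIN2 coats lipid droplets, which are abundant in bovine embryos.

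Of the 8 members measured, FADS1, FADS2 and ACLY were higher in embryos of high BHB cows on each of the 4 arrays, and ELOVL6, FABP3 and PLIN2 were lower on each of them. SCD and ELOVL5 took both signs. All ratios below are high over low BHB on the log2 scale, and a mean comes with its SD between the 4 arrays. Among all 7643 genes tested, each by its brightest probe, 10.3% lay above 0 and 15.9% below 0 on all 4 arrays. Of the 12 tested member probes 4 lay above 0 and 4 below 0 on all arrays, beside 9.59% and 14.2% of all tested probes. These shares are given as background only, because the same contrast had been used to choose the members. The probes above 0 include ELOVL5 probe EMBV3_19471, which passed the filter through the high BHB group alone. Those below 0 include ELOVL6 probe EMBV3_30333, which passed through the low BHB group alone, so for both the filter favoured the sign counted. In limma 2 of 15944 probes passed an adjusted p of 0.05 (0.0125%), neither of them the brightest probe of a named gene, with 2413 at an unadjusted p under 0.05.

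**Figure D1:**
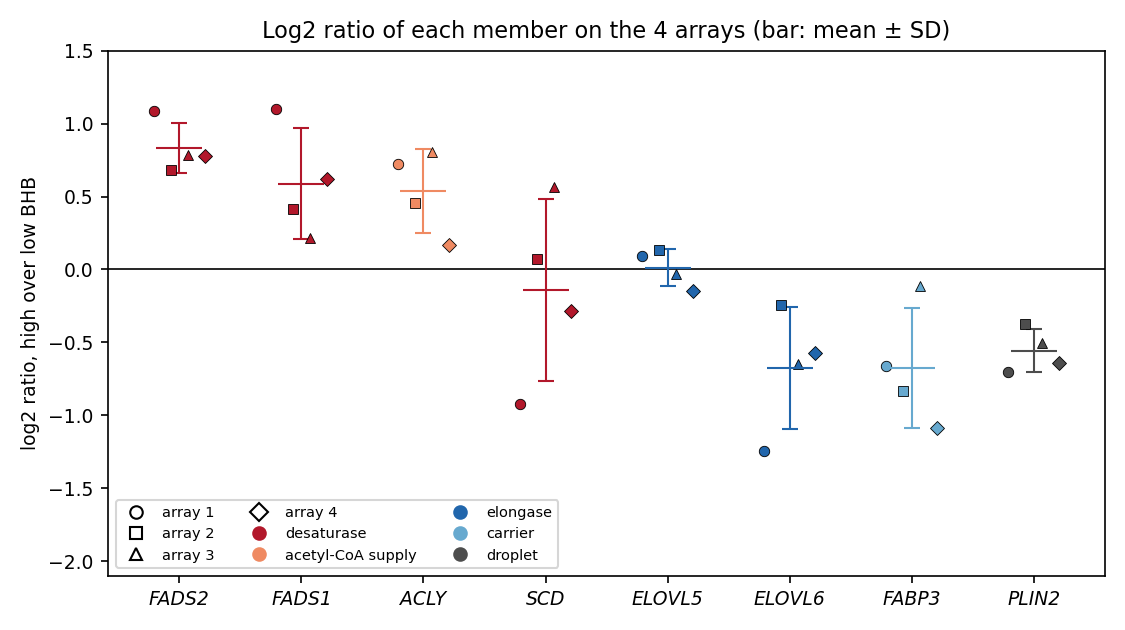
Log2 ratio of high over low BHB (y axis) of the 8 measured members (x axis) on arrays 1 to 4, with the mean and SD as bars. FADS2, FADS1 and ACLY lie above 0 on every array, ELOVL6, FABP3 and PLIN2 below 0, and SCD spans from -0.92 to 0.57.

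FADS2, the delta-6 desaturase that opens the path to long polyunsaturated fatty acids, had the highest ratio of the members and the narrowest spread of the 3 that lay above 0 on every array. Its single probe, EMBV3_26123, read median spot intensities of 1691, 2479, 3992 and 1094 units for high BHB on arrays 1 to 4. For low BHB it read 2075, 2423, 1762 and 562 units, and these raw intensities overlapped between the groups. The normalized log2 ratios were 1.08, 0.68, 0.78 and 0.78, all above 0, for a mean of 0.83 ± 0.17 (n = 4) or 1.78-fold. Of the 7643 genes tested 71, itself included, had a mean as high or higher. This rank comes from the contrast that chose the members. Counted in the same way, 449 genes were as high as FADS1 or higher and 620 as high as ACLY or higher. As low or lower were 527 genes for ELOVL6 and 536 for FABP3.

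FADS1, the delta-5 desaturase of the same path, was read by a very bright probe, EMBV3_22383. Its intensities were 43406, 19872, 30470 and 24233 units in the high BHB channel and 23264, 21350, 22515 and 13194 in the low BHB channel. The log2 ratios were 1.10, 0.41, 0.21 and 0.62, with array 1 the highest and array 3 the lowest. The mean was 0.59 ± 0.38 (n = 4, 1.5-fold). It was 0.94 with no background correction, 0.42 without array 1 and 0.40 with median centring in place of loess. A second FADS1 probe, EMBV3_38167, exceeded the detection threshold on 1 array in each group and was not tested. By gene order in RefSeq's bovine annotation (ARS-UCD2.0), FADS1, FADS2 and FADS3 follow each other on the chromosome.

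SCD, which makes monounsaturated fatty acids, did not share the direction of the other desaturases. Its intensities were 3739, 10505, 21533 and 12343 units in high BHB embryos and 12821, 14537, 12109 and 12583 in low BHB embryos. The log2 ratios were -0.92, 0.07, 0.57 and -0.28, so that 2 arrays lay on each side of 0, and the mean was -0.14 ± 0.63 (n = 4). Without array 1 it was 0.12. For SCD the spread between arrays was larger than the mean in either direction.

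ACLY, the first enzyme from citrate to fatty acids and sterols, was above 0 on each array. It read 1819, 1718, 3585 and 6788 units in the high BHB channel and 2911, 1977, 1552 and 5020 in the low BHB channel. The log2 ratios were 0.73, 0.46, 0.81 and 0.16, a mean of 0.54 ± 0.29 (n = 4) or 1.45-fold. Array 4, the brightest for this probe, gave the ratio nearest to 0.

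The 2 synthesis enzymes that follow ACLY were not measured on these arrays. The ACACA probe read 0.729 to 0.871 times the detection threshold in the high BHB channel and 0.722 to 0.889 times in the low BHB channel. The FASN probe read 0.707 to 0.973 times and 0.709 to 0.909 times. Both were thus not above background in either group on any array, and no ratio is given for them.

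**Figure D2:**
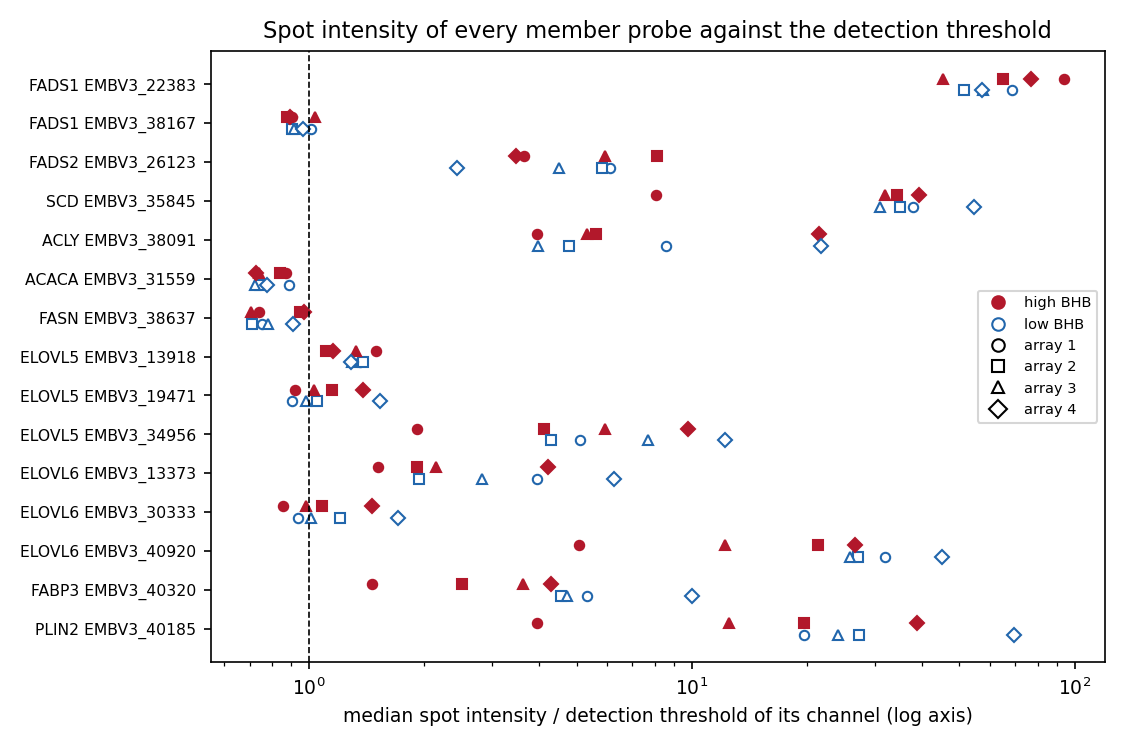
Median spot intensity of each of the 15 member probes divided by the detection threshold of its channel (x axis, log scale), in high BHB (filled) and low BHB (open) channels of arrays 1 to 4. ACACA and FASN lie left of the dashed line at 1 on every array, and the bright FADS1 probe reaches 93.8 times the threshold.

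ELOVL6, which lengthens palmitate to stearate, had the lowest mean of the members, though FABP3 lay within the spread of it. Its brightest probe, EMBV3_40920, read 2351, 6529, 8215 and 8417 units in high BHB embryos and 10837, 11268, 10127 and 10374 units in low BHB embryos. On each array the high BHB channel was the dimmer one, but the channels of an array differ in brightness before normalization. The log2 ratios were -1.25, -0.24, -0.65 and -0.57, a mean of -0.68 ± 0.42 (n = 4, 0.625-fold). The other 2 ELOVL6 probes were dimmer and lay nearer to 0. EMBV3_13373 had a mean of -0.13 ± 0.33 with array 2 above 0 at 0.28, and EMBV3_30333 had -0.20 ± 0.11 and passed the threshold on 2 high BHB and 3 low BHB channels. Averaged over its 3 probes ELOVL6 was at -0.34, and with mean in place of median spot intensities its brightest probe was at -0.37.

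ELOVL5, the elongase of polyunsaturated chains, was near 0. Its brightest probe, EMBV3_34956, read 889, 1255, 3997 and 3093 units in the high BHB channel and 1731, 1776, 2996 and 2826 in the low BHB channel. After normalization the log2 ratios were 0.09, 0.13, -0.03 and -0.15, for a mean of 0.01 ± 0.13 (n = 4). The dimmer probe EMBV3_13918 had 0.24 ± 0.65, with array 1 at 1.17 and the other 3 arrays between -0.32 and 0.16. The third probe, EMBV3_19471, close to the threshold and above it on 3 high BHB and 2 low BHB channels, had 0.19 ± 0.20. The brightest ELOVL6 probe lay below the brightest ELOVL5 probe on all 4 arrays, but for ELOVL6 the size depended on the probe.

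**Figure D3:**
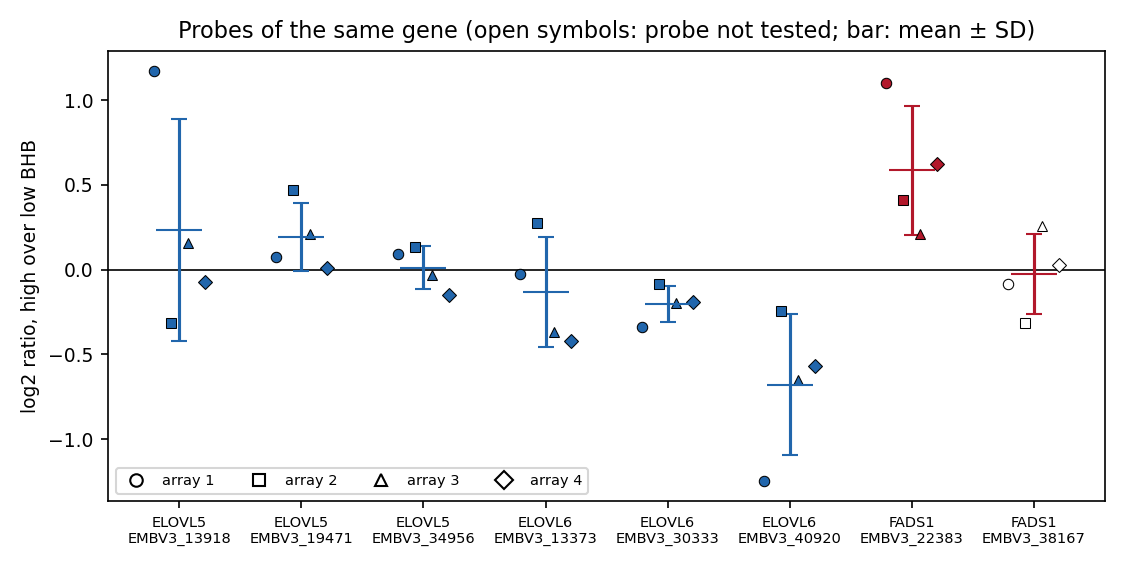
Log2 ratio of high over low BHB (y axis) of every probe of FADS1, ELOVL5 and ELOVL6 (x axis) on the 4 arrays, with mean and SD as bars and open symbols for the untested FADS1 probe. The means of the 3 ELOVL6 probes run from -0.68 to -0.13 and those of the 3 ELOVL5 probes from 0.01 to 0.24.

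FABP3, the heart-type fatty acid binding protein, was lower in the high BHB group on each array. Its probe read 678, 766, 2447 and 1354 units in high BHB embryos and 1813, 1884, 1848 and 2313 in low BHB embryos. The log2 ratios were -0.66, -0.83, -0.11 and -1.09, a mean of -0.67 ± 0.41 (n = 4, 0.627-fold). Array 3 stood nearest to 0, and on it the raw intensity was the higher one in the high BHB channel.

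PLIN2, the perilipin that coats embryonic lipid droplets, had the narrowest spread of the members below 0. Its intensities were 1826, 5984, 8439 and 12256 units in high BHB embryos and 6674, 11327, 9419 and 16004 in low BHB embryos. On each array the high BHB channel was the dimmer one. The log2 ratios were -0.71, -0.37, -0.50 and -0.64, a mean of -0.56 ± 0.15 (n = 4, 0.680-fold). Of all genes tested 891 had a mean as low or lower, so that a ratio of this size was common on these arrays.

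Set side by side, the 4 genes FADS1, FADS2, SCD and ACLY had a median log2 ratio of 0.56 over their means, with gene means from -0.14 to 0.83. The 4 genes ELOVL5, ELOVL6, FABP3 and PLIN2 had a median of -0.61, with gene means from -0.68 to 0.01. On arrays 1 to 4 the first group had medians of 0.90, 0.43, 0.68 and 0.39 and the second -0.68, -0.31, -0.31 and -0.61. The difference between the medians was 1.59, 0.74, 0.98 and 1.00, a mean of 1.08 ± 0.36 (n = 4). It had the same sign on each array, which the choice of the members had fixed in part. Each group held 1 gene apart from the rest, SCD in the first and ELOVL5 in the second. Over all 7643 genes tested the median was -0.05.

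The ratios rest on the loess step, which removes a difference between the dyes that changes with brightness. After background correction and before loess, FADS2 read -0.41, 0.08, 1.20 and 1.06 on arrays 1 to 4, a mean of 0.48 ± 0.77. The shift that loess made on it was largest on array 1, at 1.49. ACLY read -0.75, -0.16, 1.23 and 0.43 before loess, a mean of 0.19 ± 0.84, below 0 with the high group in Cy5 (arrays 1 and 2) and above 0 with it in Cy3 (arrays 3 and 4). The median of all tested probes before loess changed sign in the same way, at -0.63, -0.64, 0.59 and 0.35. PLIN2 read -2.01, -0.92, -0.20 and -0.40, below 0 on each array before loess as after it. With each array centred on its median in place of loess, FADS2 was at 0.35, FADS1 at 0.40 and ACLY at 0.06, while ELOVL6 was at -1.08, FABP3 at -1.13 and PLIN2 at -1.01. Under that centring the median of all genes tested was -0.25, and relative to it FADS2 stood at 0.60, FADS1 at 0.64, ACLY at 0.30, ELOVL6 at -0.83, FABP3 at -0.88 and PLIN2 at -0.77.

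**Figure D4:**
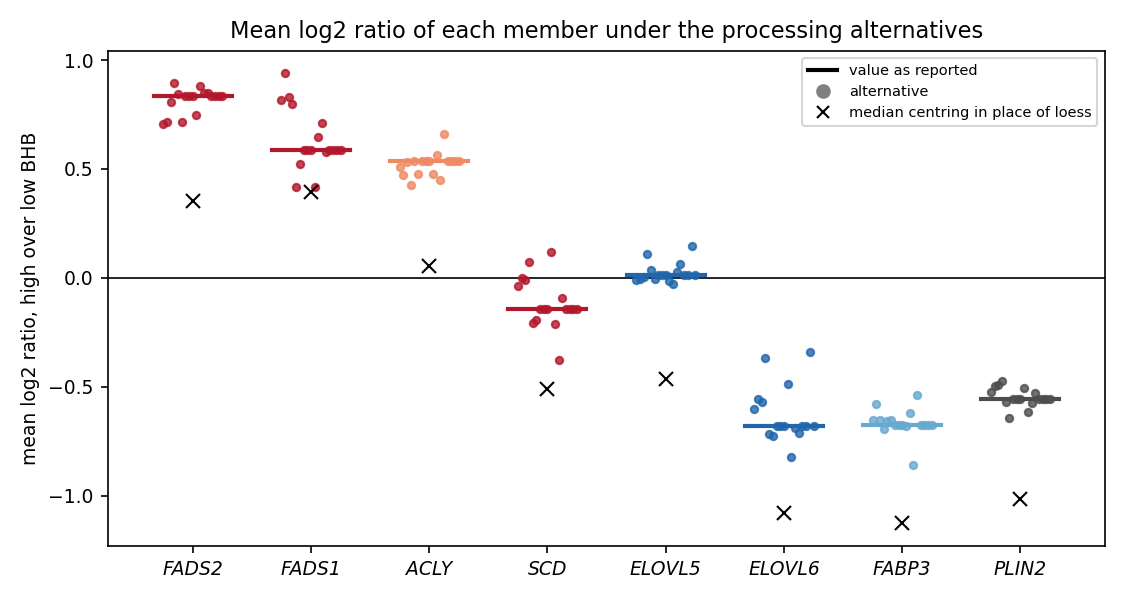
Mean log2 ratio of high over low BHB (y axis) of the 8 measured members (x axis) as reported (line) and under each processing alternative (points), with median centring as a cross. Of the 18 alternatives, 7 (filters, thresholds, averaging by title number, a dye term and, for genes with 1 tested probe, the mean over probes) leave a mean as it is by construction. Under the 11 that move them, FADS2, FADS1 and ACLY stay above 0 and FABP3 and PLIN2 below 0, as does ELOVL6 under its 12, while SCD and ELOVL5 take both signs.

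The dye effect left after loess is a measure of the same probes that had not served to choose them. Loess had already removed the difference between the dyes shared by probes of like brightness, so the calls below do not measure that difference. In limma, 0 of 15944 probes had a dye effect at an adjusted p under 0.05 (0% called), with 577 at an unadjusted p under 0.05 (3.62%). Over the 12 tested member probes the dye effect, as log2 of Cy5 over Cy3, ran from -0.28 for SCD to 0.26 for the ELOVL6 probe EMBV3_13373, with an adjusted p of at least 0.993 in limma. For FADS2 it was 0.05 ± 0.22 (SE) and for PLIN2 0.02 ± 0.22 (SE). With 2 arrays per dye orientation, a dye effect of the size of these standard errors was not detectable.

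Over the 4 ratios, each member was set against every other by Euclidean distance. FADS1 and FADS2 were nearest to each other, at 0.65, and ACLY was nearest to FADS2, at 0.75. ELOVL6 and PLIN2 were nearest to each other, at 0.58, and FABP3 was nearest to PLIN2, at 0.75. Among the 7600 other named genes with a value on each array, the 3 nearest to FADS1 were SYNPO (0.16), KCMF1 (0.17) and HACD3 (0.18), the last a dehydratase of the fatty acid elongation cycle. Nearest to FADS2 were NAA60 (0.20), AP1B1 (0.35) and CIST1 (0.37). Nearest to ELOVL6 were COX7C (0.12), HPRT1 (0.13) and NIPA2 (0.20), and nearest to PLIN2 were LOC541081 (0.04), NTAQ1 (0.10) and SCYL2 (0.13). The median distance of all genes was between 1.39 and 2.00. With 4 arrays many genes come close to any profile, and these are descriptions of likeness alone.

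Outside the members, 109 other genes of fatty acid and triglyceride metabolism were listed, of which 107 were on the array and 55 tested. In limma 0 of the 55 passed an adjusted p of 0.05, the smallest being 0.256. At an unadjusted p under 0.05 there were 7 higher and 3 lower, beside 5.77% higher and 11.8% lower of all genes tested (4.99% and 10.1% of all probes). Of the 55 genes 35 had a mean above 0 and 20 below, with a median of 0.16 against -0.05 over all genes.

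Regulators of lipid synthesis had the most such genes. Of 11 tested, 7 had means above 0 and 4 below, 4 were higher at an unadjusted p under 0.05, 0 were lower, and 0 passed an adjusted p of 0.05 in limma. SCAP, which escorts sterol regulatory element binding proteins out of the endoplasmic reticulum, had a log2 ratio of 0.81 ± 0.58 (0.06, 0.64, 1.32 and 1.22 on arrays 1 to 4, adjusted p = 0.256 in limma). SREBF2, a transcription factor of sterol synthesis, had 0.60 ± 0.57 (adjusted p = 0.317 in limma), with 1.34 on array 1 and 0.61 at its other tested probe. The fourth of these was SREBF1, the sterol regulatory factor of fatty acid genes, at 0.53, named after its value was seen. The fatty acid receptor PPARD had 0.59 ± 0.46 (adjusted p = 0.301 in limma). Of these 4, all lay above 0 on every array, which singling them out by this same contrast had fixed in part. MBTPS1, the protease that cleaves the same factors, was below 0 on every array at -0.22 ± 0.15 (adjusted p = 0.598 in limma). INSIG2, which retains SCAP, had -0.31 ± 0.65, was above background on 2 high BHB and 3 low BHB channels, and had a mean near 0 at its other tested probe. In mammals FADS1, FADS2, ACLY and SCD are known targets of these sterol regulatory factors.

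**Figure D5:**
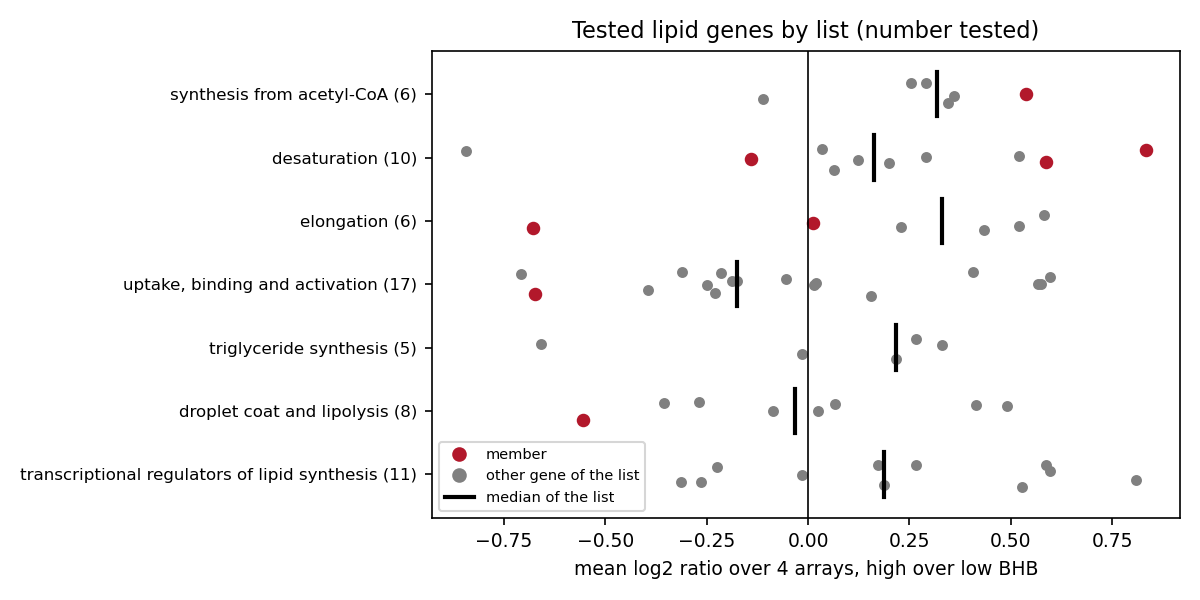
Mean log2 ratio of high over low BHB (x axis) of each tested lipid gene by list (y axis, number tested in brackets), with members in red, other genes in grey and the median of the list, members included, as a line. The list medians run from -0.18 for uptake, binding and activation to 0.33 for elongation.

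Elongation needs further enzymes beside the elongases, and these did not share the ratio of ELOVL6. Of 6 tested genes of the list, ELOVL5 and ELOVL6 included, 5 had means above 0, with a median of 0.33. The dehydratase HACD3 had 0.58 ± 0.42 and TECR, the reductase of the last step, 0.52 ± 0.22, each with an adjusted p of 0.301 in limma and above 0 on all 4 arrays. TECR was above background on 2 of the low BHB channels. ELOVL1, an elongase of very long saturated chains, had 0.43 ± 0.79 and was below 0 on arrays 1 and 4.

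Desaturation, with FADS1, FADS2 and SCD included, had 8 of 10 tested genes above 0 and a median of 0.16. DEGS1, which desaturates dihydroceramide and not free fatty acids, was the lowest of the list at -0.84 ± 0.73, with -1.77 on array 1 (adjusted p = 0.273 in limma). The cytochrome b5 reductase CYB5R1 had 0.52 ± 0.36 (adjusted p = 0.317 in limma), and DEGS2 had 0.29 ± 0.79. FADS3, the neighbour of FADS2, had 0.20 ± 0.86.

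In the synthesis list 6 of 13 genes on the array were tested, ACLY among them, and 5 had means above 0, with a median of 0.32. Untested were ACACA, FASN, ACACB, ACSS2, ME1, OXSM and OLAH. The median thus leaves out ACACA and FASN, the enzymes from acetyl-CoA to palmitate. After ACLY came the citrate carrier SLC25A1 at 0.36 ± 0.81, the acetate-activating enzyme ACSS1 at 0.35 ± 0.37 and ACSF3, which activates malonate, at 0.29 ± 0.45. These 3 took both signs over the arrays.

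Uptake, binding and activation genes, FABP3 included, had 7 of 17 means above 0 and a median of -0.18. MFSD2A, a transporter of lysophospholipids with docosahexaenoic acid, had -0.71 ± 0.42 (adjusted p = 0.259 in limma), below 0 on each array, but was above background on 1 high BHB and 3 low BHB channels. The binding protein FABP7 had 0.60 ± 0.71 and the transport protein SLC27A3 0.57 ± 0.61, both highest on array 1 and near 0 on array 3. FABP3 thus did not share its sign with FABP7, and FABP5 had -0.18 ± 0.60.

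Of 8 droplet genes tested, PLIN2 included, 4 had means above 0 and 4 below, with a median of -0.03. PNPLA2, the lipase that opens triglyceride breakdown, had 0.49 ± 0.38, and HILPDA, which inhibits that lipase, had 0.41 ± 0.58. PLIN3, the other perilipin tested, had -0.36 ± 0.99 with arrays on both sides of 0. Triglyceride synthesis had 5 of 16 genes tested. AGPAT5, an acyltransferase of phosphatidic acid synthesis, had -0.66 ± 0.22 and was below 0 on each array (adjusted p = 0.256 in limma), with -0.36 and -0.32 at its other tested probes. GPAT3 had 0.33 ± 0.52 and DGAT2, which adds the last acyl chain, 0.27 ± 0.64.

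The labels name the stages, morulas and blastocysts, and markers of blastocyst lineages were measured. Of 12 trophectoderm markers on the array 11 were tested and of 7 inner cell mass markers 7, with median log2 ratios of 0.03 and -0.27. Of the inner cell mass markers 2 had means above 0 and 5 below. DPPA4, at -0.98 ± 0.61 (adjusted p = 0.222 in limma), and SOX2, at -0.41 ± 0.27 (adjusted p = 0.357 in limma), were below 0 on every array, with DPPA4 above background on 1 high BHB channel. NANOG stood at -3.38 on array 4 but above 0 on arrays 2 and 3, at 0.13 and 0.18. The remaining inner cell mass markers lay nearer to 0, with means of 0.17 for KLF4, 0.01 for LIN28A, -0.05 for SALL4 and -0.27 for POU5F1. Of 9 hypoblast markers on the array 5 were tested. All 5 had means above 0, as had 3470 of all 7643 genes tested. The median of the 5 was 0.55, with array medians of 0.39, 1.04, 1.17 and -0.03. The summed normalized level of these hypoblast markers was 37298 to 71686 units in the high and 23399 to 76679 in the low BHB group. Within arrays 1 to 4 the high group had 0.568, 3.06, 2.26 and 0.899 times the level of the low group. By the same measure trophectoderm markers had 0.505, 1.24, 1.26 and 0.827 times, and inner cell mass markers 0.609, 1.21, 1.14 and 0.768 times. Each summed level was thus under 1 on arrays 1 and 4 and over 1 on arrays 2 and 3. A sum is weighted to the brightest markers of its list, and the array medians of the log2 ratios differed in part. On array 1 the trophectoderm median was 0.10 and the hypoblast median 0.39, and on array 2 the inner cell mass median was -0.08. The remaining array medians lay on the same side as the sums. COL4A1, a basement membrane collagen, had a log2 ratio of 1.14 ± 0.08 (adjusted p = 0.203 in limma) and was above 0 on every array. Of 8 blood and immune markers 2 were tested, HBA and PTPRC, with means of 0.25 and 0.42, and HBB was not above the filter. Of 9 cumulus and granulosa markers 1 was tested, of 6 sperm markers 1 and of 6 oviduct and uterine markers 0. The part of cell composition in the ratios of the members was not tested. Across tested probes, which share arrays and are no replicates, Pearson's r between the ratios of 2 arrays was 0.10 to 0.38.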

How the data were processed

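The deposited scanner files hold spot and local background intensity (median and mean pixel) in Cy5 and Cy3, per the file headers, with no normalization by the authors. A 0 or 1 column, a mark with no other unit, names 95 to 114 spots per array that the scanner software had set aside. A table of log2 ratios of each array was also deposited by the authors. They were set against scanner-file ratios with local background subtracted in place of normexp, then put through loess and turned as described below. The correlations were 0.93 to 0.98, so that the deposited ratios run as high over low BHB. Their medians were 0.00096 to 0.017. The submitters' processing notes name limma, and the scanner software and the authors' background step are not given. A second table of the authors' log2 ratios, with 4 columns whose names match no label, was not used.

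Ratios were computed from median intensities in limma 3.58.1 (R 4.3.3). Background was corrected with normexp (offset 50) fitted without the spots set aside, because with them the fitted background mean was below 0 in 3 of 8 channels (as low as -272.2, against 102.5 without them). Loess (span 0.3, control spots at weight 0) was then run within arrays, and the sign was changed on arrays 3 and 4 so that every ratio reads high against low BHB. A spot was above background where its median intensity was over a threshold, the average of its channel's negative control spots plus 2 SD (153 spots per array, less up to 1 set aside). Tested were the 15944 probes of 43794 that passed it for at least 1 group on 3 or more arrays. Leaving out negative control spots that were set aside was decided after the files were seen, and keeping them was run as an added alternative. One test per probe was made with lmFit and eBayes, with Benjamini-Hochberg adjustment over all tested probes and a threshold of 0.05, and checked on simulated data. The number of arrays, 4, limits the precision.

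Gene names came from the platform annotation, which gave 21790 probes 1 symbol each and 22004 none. Through the RefSeq gene table of ARS-UCD2.0, 20025 of these were current symbols, 1524 older ones and 241 were not found. The brightest tested probe stood for its gene. Named were all members, in each lipid list the 3 other genes with the largest absolute mean, and the 3 genes nearest to each of FADS1, FADS2, ELOVL6 and PLIN2. Other genes named in passing (SREBF1, INSIG2, FADS3, FABP5, MBTPS1, DPPA4, SOX2, COL4A1, NANOG, HBA and PTPRC) were chosen after their values were seen. KLF4, LIN28A, SALL4 and POU5F1 were named so that each tested inner cell mass marker has its value. The members and lists were chosen with earlier results of these data known. Alternatives covered the background, spot summary, normalization, deposited ratios, filter, each array left out, pairing by title number, a dye term and the mean over probes.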

Additional observations from a re-analysis of the deposited data

Results flagged for a closer look

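Among 55 probes of named genes checked for 1 array far from the other 3, the pluripotency factor NANOG stood apart on array 4. Its log2 ratio was -3.38 there and -0.42 to 0.18 on the other arrays, a gap of 0.834 of the range, just past Dixon's critical value for 4 arrays. Chance passes this value in about 5% of groups, and 1 of the 55 probes passed it. NANOG had been named after its values were seen, so this rate does not apply to it. The cause was not tested. No tested member probe passed the critical value.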

How the results depend on the processing

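Of 18 alternatives, 11 could move the mean of a member with 1 tested probe and 12 that of ELOVL5 and ELOVL6; under these FADS1, FADS2 and ACLY kept means above 0 and ELOVL6, FABP3 and PLIN2 below 0. FADS1 ran from 0.40 to 0.94, FADS2 from 0.35 to 0.89 and PLIN2 from -1.01 to -0.47. Signs were not settled for SCD (-0.51 to 0.12) and ELOVL5 (-0.46 to 0.15). Median centring in place of loess moved the median of desaturases and ACLY to 0.20 and that of elongase, carrier and droplet genes to -1.05, and left 97.5% of probes past an unadjusted p of 0.05 on the lower side, against 67% with loess, 55.7% under the stricter filter, 56.4% without array 3, 56.9% with the replicate block described below, 72.3% with mean intensities and 75.1% without array 4. Leaving out each array in turn gave medians of 0.45 to 0.62 and -0.63 to -0.50. At an adjusted p under 0.05 limma called 2 probes, and 0 with normexp on all spots, with mean spot intensities or with median centring, and 1 without background correction, with background subtracted, without a filter or with a dye term. It called 0 to 2 with an array left out, 0 without array 2 or array 4. At an unadjusted p under 0.05 the 2413 of 15944 tested probes became 4044 of 43794 without a filter, a smaller share. They became 1295 to 2442 of 15944 with an array left out, lowest without array 4. Dye effects at an adjusted p under 0.05 went from 0 to between 0 and 67 with an array left out, the most without array 2. With a replicate block, in which arrays of the same title number were averaged, 1208 probes passed the adjusted and 4008 the unadjusted threshold. This leaves 2 values per probe, and arrays 1 and 3 (r = 0.10) and 2 and 4 (r = 0.19) were not the most alike. The titles give arrays 3 and 4 as dye swaps under those numbers while the labels number 4 biological replicates, so whether they share RNA was not settled. The causes of these moves were not tested. ACACA and FASN, below the threshold throughout, and the second FADS1 probe, above it on 1 array in each group, are limited by signal.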
